A study of Homo sapiens with 6 samples.

Results

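Intergenic and antisense long noncoding RNAs (lncRNAs) were followed in RCC4, a cell line derived from a human clear cell kidney cancer. RCC4 has lost the function of VHL, so that hypoxia-inducible factors are active at normal oxygen. RNA sequencing of polyadenylated RNA, with libraries from a stranded mRNA kit, gave 3 libraries of parental cells (genotype wild type) and 3 libraries of ATF4 KO cells, both of the same line and with no treatment in the labels. The comparison asks which lncRNAs differ when ATF4, a bZIP transcription factor of the integrated stress response, is knocked out. How the knockout was made, whether the KO cells are 1 clone or a pool, and whether replicates were separate cultures is left unsaid in the labels, so a p-value measures only the spread between these samples.

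Genes were chosen by their symbols and by a measured value. A symbol had to begin with LINC and digits, or end in -AS and a digit, -DT (divergent transcript) or -IT1 (intronic transcript), or be MALAT1 or NEAT1. The mean over all 6 libraries had to reach 1 CPM (the gene's counts per 1000000 counts of the library). Small nucleolar RNA host genes and EPB41L4A-AS1 were left out. Of 60683 identifiers in the table, 4819 had such a symbol and 508 met the level. They comprised 266 antisense, 139 LINC, 98 divergent and 3 intronic transcripts, beside MALAT1 and NEAT1. All 508 passed the filter on low counts and were tested, among 15321 genes in all. Just inside the level stood TOB1-AS1 and LINC00853, with means of 0.989 and 0.872 CPM after scaling in parental cells and 1.02 and 1.14 CPM in KO cells. Just outside stood ZNF436-AS1, with 1.01 and 0.982 CPM, and ELOA-AS1, with 1.07 and 0.930 CPM. For 25 of the 508 lncRNAs the KO mean was under 1 CPM and only the parental mean reached it, and for 9 the reverse held. These 34 met the level through their higher group, so their differences are no measure of how often lncRNAs changed. In GENCODE 29, 4 of the 508 are typed as protein-coding genes and 12 as transcribed pseudogenes.

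Long noncoding RNAs are transcribed by RNA polymerase II but are not translated into a known protein. Divergent transcripts start beside a coding promoter and run away from it, antisense transcripts run across a coding gene on the other strand, and intergenic transcripts lie between genes. MALAT1 resides in nuclear speckles, NEAT1 is the scaffold of paraspeckles, and most other lncRNAs have no settled function.

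Promoter windows from RefSeq (build GRCh38.p14, 250 bases before to 50 bases after an annotated start) were matched by symbol for 387 of the 508 lncRNAs, in 470 windows. Those of 5 lncRNAs are shown. They belong to lncRNAs among the largest differences between the groups, and each window shown holds a match to a sequence searched for. Windows without a match are not shown, so how often strongly changed lncRNAs hold a match cannot be read from these 5 windows. Those of LINC01547 and INSIG1-DT are shared with a coding neighbour on the other strand, those of ZMIZ1-AS1 and NR2F2-AS1 lie near a coding gene that is a regulator of transcription, and that of NHS-AS1 holds the amino acid response element searched for. Sequences run 5′ to 3′ on the strand of the lncRNA, and capitals mark matches on either strand to TGATGNAA (amino acid response element, bound by ATF4 with C/EBP factors), TGACGTCA (cAMP response element) or NACGTG (core of the hypoxia response element, which also lies within the E-box CACGTG).
LINC01547 (chr21:44939864-44940163, minus strand): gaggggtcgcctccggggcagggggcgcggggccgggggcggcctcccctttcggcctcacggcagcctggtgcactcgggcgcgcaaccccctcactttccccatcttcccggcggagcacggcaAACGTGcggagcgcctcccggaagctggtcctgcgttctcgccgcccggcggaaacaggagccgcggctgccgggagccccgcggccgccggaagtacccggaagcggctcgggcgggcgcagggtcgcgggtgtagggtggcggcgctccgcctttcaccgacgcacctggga
INSIG1-DT (chr7:155297609-155297908, minus strand): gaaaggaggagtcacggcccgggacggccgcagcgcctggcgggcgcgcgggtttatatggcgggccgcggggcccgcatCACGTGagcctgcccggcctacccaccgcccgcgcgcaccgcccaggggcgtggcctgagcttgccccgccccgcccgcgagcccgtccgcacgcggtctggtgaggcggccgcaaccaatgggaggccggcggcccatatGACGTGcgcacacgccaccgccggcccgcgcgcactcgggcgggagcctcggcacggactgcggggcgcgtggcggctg
ZMIZ1-AS1 (chr10:79067399-79067698, minus strand): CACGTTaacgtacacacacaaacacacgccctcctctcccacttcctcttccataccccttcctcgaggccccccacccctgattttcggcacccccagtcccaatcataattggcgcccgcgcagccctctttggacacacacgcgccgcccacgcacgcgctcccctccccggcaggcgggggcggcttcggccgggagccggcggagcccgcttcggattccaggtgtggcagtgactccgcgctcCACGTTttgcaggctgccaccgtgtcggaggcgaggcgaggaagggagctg
NR2F2-AS1 (chr15:96327312-96327611, minus strand): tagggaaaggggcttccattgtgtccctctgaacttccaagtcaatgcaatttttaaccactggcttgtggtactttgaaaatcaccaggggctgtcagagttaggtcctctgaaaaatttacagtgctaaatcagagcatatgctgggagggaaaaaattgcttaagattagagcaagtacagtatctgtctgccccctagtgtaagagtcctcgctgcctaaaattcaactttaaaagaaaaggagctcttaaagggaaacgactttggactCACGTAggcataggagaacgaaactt
NHS-AS1 (chrX:17559078-17559377, minus strand): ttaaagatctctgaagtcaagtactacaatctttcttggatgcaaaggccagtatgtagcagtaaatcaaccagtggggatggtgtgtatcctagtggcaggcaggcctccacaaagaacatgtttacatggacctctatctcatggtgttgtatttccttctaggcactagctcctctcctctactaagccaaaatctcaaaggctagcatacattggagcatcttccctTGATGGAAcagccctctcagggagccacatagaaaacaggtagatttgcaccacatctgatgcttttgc

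The window of LINC01547 shares 215 bases with that of SLX9, a ribosome biogenesis factor, and the window of INSIG1-DT shares 281 bases with that of INSIG1, a retention factor of the sterol-sensing machinery. TGATGNAA was found in 6 of the 470 windows (1.28%), against 3.62% of all 35116 promoter windows. NACGTG was found in 130 windows (27.7%), against 21.4% of all windows, and TGACGTCA in 13 (2.77%), against 1.85%. Of 69 matched lncRNAs that were lower in ATF4 KO cells, 3 held TGATGNAA (NHS-AS1, LINC02535 and LINC02970), of 34 matched lncRNAs that were higher none did, and of the 284 matched lncRNAs that did not pass the test 3 did. The calls of LINC02535 and LINC02970 were lost with the regional change of neighbouring coding genes taken off (adjusted p = 0.114 and 0.611, edgeR). NACGTG was held by 18 of the 69, by 10 of the 34 and by 90 of the 284. A match is a description of letters and not a bound site.

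The libraries held 41002611 to 46755358 counts, so 3 counts, the upper limit that a count of 0 allows, corresponded to 0.0642 to 0.0732 CPM (counting error only). No lncRNA had a count of 0 in any library. All 8 renal carcinoma markers were at 1 CPM or more, with sums of 6038 to 6390 CPM in parental and 6683 to 6892 CPM in KO cells. Single markers moved either way, as CA9 (16.6 and 96.9 CPM in parental and KO cells) and EPAS1 (182.5 and 130.8 CPM). The summed immune and endothelial markers stayed at or below 0.211 CPM in every library, and of 4 fibroblast markers DCN and LUM were near 0 while COL1A1 and PDGFRB summed to 58.5 to 72.7 CPM in parental and 51.1 to 51.7 CPM in KO cells. ATF4 itself was counted at 239.4, 250.9 and 242.5 CPM in parental cells and at 209.7, 223.3 and 209.1 CPM in KO cells (log2 fold change −0.19 ± 0.029 SE, adjusted p = 3.19e-07, edgeR). With the median change of the 50 tested coding genes on each side (the regional median) taken off, it was higher (0.08, adjusted p = 0.0225, edgeR). As the edited bases are not given in the labels, the level of the transcript does not check the knockout. The medians of some chromosomes also differed between the groups, which does not show that a whole chromosome moved together. The median log2 fold change of all tested genes was −0.16 on chromosome 11, −0.15 on 20, −0.22 on 21, −0.28 on 22 and −0.23 on X, against 0.01 over all chromosomes.

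Of the 508 lncRNAs, 100 were lower and 46 were higher in ATF4 KO cells (edgeR quasi-likelihood test, adjusted p under 0.05 over all tested genes), so that 28.7% differed against 42.0% of all tested genes. The lower share of 19.7% stood near the 20.8% of all tested genes, whereas the higher share of 9.06% was below their 21.2%. The median log2 fold change was −0.05, beside 0.01 over all tested genes. Of 2326 other tested noncoding genes, not matched for level, 8.25% were lower and 5.42% higher (median −0.02). Without the 34 lncRNAs that met the level through 1 group, 92 of 474 were lower (19.4%) and 42 higher (8.86%). A difference of at least 2-fold was reached by 9 lower (1.77%) and 2 higher (0.394%) of the 508 lncRNAs, against 1.46% and 1.38% of all tested genes, and by 7 lower and 1 higher without those 34. In bulk RNA, fewer cells with a transcript and less of it per cell cannot be told apart. In 130 of the 146 called lncRNAs (89.0%), no KO library overlapped a parental library, as in 94.2% of all called genes. The count of higher lncRNAs fell to 27 without KO replicate 2 and to 26 in DESeq2.

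Levels of lncRNAs were low, with a median of 3.06 CPM, and calls followed the level. In a band of 1 to 2 CPM, 21 of 166 lncRNAs were lower and 11 higher, while of 446 protein-coding genes at the same level 51 were lower and 88 higher. Without the lncRNAs that met the level through 1 group, 13 of 132 were lower there and 7 higher. From 2 to 5 CPM the lncRNA counts were 32 lower and 17 higher of 176, against 128 and 155 of 780 protein-coding genes. From 5 to 10 CPM they were 19 and 10 of 78 lncRNAs (37.2% called), against 183 and 224 of 976 (41.7%). At 10 CPM and over, 28 of 88 lncRNAs were lower and 8 higher, against 2438 and 2487 of 9178 protein-coding genes. In each band lower lncRNAs outnumbered higher ones, and the median fold change lay between −0.03 and −0.08.

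**Figure D1:**
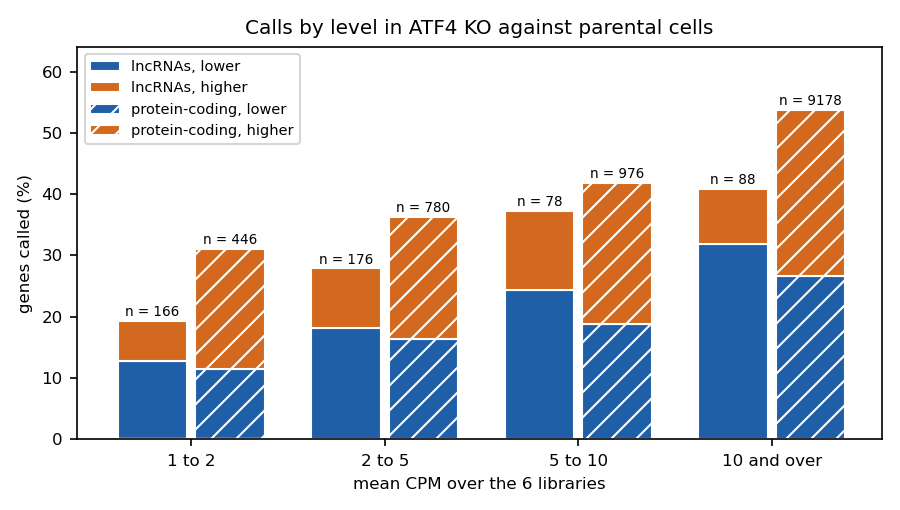
Percentage of lncRNAs (plain bars) and protein-coding genes (hatched bars) called lower (blue) or higher (orange) in ATF4 KO cells, by mean CPM over the 6 libraries, with the number of genes above each bar. At 10 CPM and over, 31.8% of the lncRNAs were lower and 9.09% higher, whereas the coding genes divided into 26.6% and 27.1%.

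By name, 40 of 139 LINC genes were lower and 13 higher, so that 38.1% differed, with a median of −0.09. Of 266 antisense transcripts 44 were lower and 22 higher (24.8%), and of 98 divergent transcripts 14 were lower and 10 higher (24.5%). All these shares lie below the 42.0% of all tested genes. Of the 3 intronic transcripts, THBS1-IT1 was lower and GABPB1-IT1 higher, the latter a call lost with the regional median taken off (adjusted p = 0.095, edgeR). The 508 genes had a median of 4 merged exons and 2529 exon bases, compared with 11 exons and 5187 bases for tested protein-coding genes, and per kilobase of exon their median level was 1.41 CPM against 5.65 CPM.

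Among the nuclear scaffolds, NEAT1 (chr11:65422774-65445540) had 65.4, 54.5 and 55.7 CPM in parental cells and 37.7, 45.7 and 44.4 CPM in KO cells. Every KO library was below every parental library, and the log2 fold change was −0.45 ± 0.10 (SE, adjusted p = 0.0163, edgeR). The call was lost without KO replicate 3 (−0.49, adjusted p = 0.0547, edgeR) and when the regional median of −0.14 was taken off (−0.31, adjusted p = 0.0681, edgeR). It was also lost with replicate number as a block (−0.45, adjusted p = 0.121, edgeR). The nearest coding gene, FRMD8, did not pass the test (−0.01), and the ratio of NEAT1 to FRMD8 was lower in KO cells (−0.45 ± 0.083 on the log2 scale, adjusted p = 0.00075, limma). MALAT1 (chr11:65497688-65506516), which follows NEAT1 on the same strand, had 58.2, 26.0 and 45.2 CPM in parental and 30.9, 35.5 and 38.5 CPM in KO cells. The parental values enclosed all 3 KO values, and the log2 fold change of −0.30 ± 0.34 did not pass the test (adjusted p = 0.555, edgeR). It became −0.02 without parental replicate 1 and −0.56 without parental replicate 2 (adjusted p = 0.972 and 0.0873, edgeR). Its coefficient of variation in parental cells, 37.6%, was the highest of the 88 lncRNAs at 10 CPM and over, whose median was 4.13%. All these values are of polyadenylated RNA, so NEAT1 or MALAT1 molecules without a poly(A) tail were not assessed.

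Proteins that bind or trim these transcripts were counted from lists chosen with earlier results of these data known. Of 18 paraspeckle proteins, 15 were higher in KO cells and 1 was lower, with a median log2 fold change of 0.22 against 0.01 over all tested genes. Among all tested protein-coding genes 24.8% were higher and 23.3% lower, or 48.1% called in all. Higher were SFPQ (0.31 ± 0.030 SE, adjusted p = 1.18e-12, edgeR), DAZAP1 (0.27) and HNRNPM (0.22). NONO, the partner of SFPQ in the paraspeckle core, which is encoded on chromosome X, was the lower one (−0.15 ± 0.028, adjusted p = 7.53e-06, edgeR), and its sign turned with the regional median taken off (0.06, adjusted p = 0.0764, edgeR). Of 19 nonsense-mediated decay genes 9 were higher and 1 was lower (median 0.07), a called share close to that of protein-coding genes. RBM8A (0.31) and EIF4A3 (0.24), of the exon junction complex, and UPF2 (0.41) were higher, and the helicase UPF1 was lower (−0.10, adjusted p = 0.0051, edgeR). Of 22 genes of the nuclear exosome and its adaptors, 13 were higher and 2 lower (median 0.17). The exosome ring subunit EXOSC8 (0.56 ± 0.075, adjusted p = 7.79e-09, edgeR), SRRT (0.31) and MPHOSPH6 (0.39) were higher, while RBM7 (−0.26) and NCBP2 (−0.09) were lower. For MALAT1 and NEAT1 end processing and stability, 14 of 15 genes were tested and 4 were higher, namely HNRNPC (0.18), POP1 (0.36) and POP7 (0.23) of RNase P, and METTL16 (0.10), which binds the MALAT1 triple helix. The call of METTL16 was lost with the regional median taken off (0.0062, adjusted p = 0.923, edgeR). The share of higher genes was close to the 24.8% of protein-coding genes. None of the 14 was lower, and their median was 0.05.

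The largest fall was in LINC01234 (chr12:113679459-113773683), at 2.12, 3.09 and 1.76 CPM in parental cells and 0.365, 0.688 and 0.359 CPM in KO cells. The groups were far apart although the KO level was low, and the log2 fold change was −2.29 ± 0.26 (SE, adjusted p = 3.26e-10, edgeR). LINC01234 met the level of 1 CPM only through its parental mean. Its coding neighbour RBM19 had 42.6 and 42.4 CPM and did not pass the test. LINC01182 (chr4:13655179-13977075) had 12.2, 12.6 and 13.9 CPM in parental cells and 3.91, 3.35 and 3.36 CPM in KO cells. It fell 3.66-fold (−1.87 ± 0.10, adjusted p = 2.97e-22, edgeR), the smallest p among the lower lncRNAs. BOD1L1, a replication fork protection gene 27456 bases away, was higher by 0.17. LINC00607 (chr2:215611563-215843722) went from 5.22, 4.84 and 5.24 CPM to 1.05, 1.74 and 1.46 CPM (−1.84 ± 0.16). LINC02015 (chr3:177816865-177899224) went from 5.93, 6.57 and 5.70 CPM to 2.28, 2.09 and 2.33 CPM (−1.44 ± 0.13). In all 4 intergenic RNAs the groups did not overlap, and none of the 3 coding neighbours that were tested was called lower.

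Antisense transcripts made up 6 of the 12 lowest. ZMIZ1-AS1 (chr10:78943328-79067895) is transcribed away from ZMIZ1, a SUMO ligase-like coactivator, from a start 1140 bases off. It had 9.49, 8.71 and 8.69 CPM in parental and 3.84, 3.33 and 3.09 CPM in KO cells (−1.39 ± 0.11, adjusted p = 2.46e-15, edgeR). ZMIZ1 went the other way, from 214.8, 206.9 and 207.0 CPM to 254.6, 258.3 and 267.8 CPM (0.31 ± 0.029, adjusted p = 1.29e-13, edgeR). No KO library overlapped a parental library for either RNA. NR2F2-AS1 (chr15:96110040-96327361) overlaps NR2F2, which encodes the nuclear receptor COUP-TFII. It had 2.35, 2.00 and 1.64 CPM in parental and 0.462, 1.18 and 0.676 CPM in KO cells (−1.35 ± 0.25), and only its parental mean reached 1 CPM. Here the coding gene fell as well, from 129.1, 129.7 and 125.4 CPM to 69.5, 70.4 and 71.3 CPM (−0.86 ± 0.033), and the ratio of the pair did not pass the test (−0.54 ± 0.27, adjusted p = 0.274, limma). IGFL2-AS1 (chr19:46189166-46203083) was the most abundant of the 12 lowest, at 32.6, 30.1 and 29.9 CPM in parental and 14.5, 16.5 and 15.6 CPM in KO cells (−0.99 ± 0.061), while IGFL2 was under 0.01 CPM in both groups. The other 5 of the 12 lowest were LINC02243 (−1.21), NHS-AS1 (−1.15), SLCO4A1-AS2 (−1.08), LINC02454 (−0.92) and SYT9-AS1 (−0.81), all at 3.26 CPM or less in every library and all without overlap between the groups. Beside LINC01234 and NR2F2-AS1, further lower lncRNAs met the level through 1 group, as the 100 lower became 92 without such lncRNAs. LINC02243 and NHS-AS1 lie on X. SYT9-AS1, on chromosome 11, lost its call when the regional median was taken off (adjusted p = 0.0539, edgeR) and without KO replicate 3 (adjusted p = 0.0621, edgeR).

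The largest rise was in LINC01547 (chr21:44932814-44939913), from 2.76, 2.93 and 3.49 CPM to 7.46, 6.69 and 7.31 CPM (1.22 ± 0.12, adjusted p = 2.30e-12, edgeR). Its head-to-head neighbour SLX9, with a start 97 bases away, also rose, from 22.9, 22.6 and 25.3 CPM to 36.5, 36.5 and 35.5 CPM (0.62 ± 0.054, adjusted p = 2.58e-14, edgeR). Neither RNA had overlapping groups, and the lncRNA rose by more than the coding gene (0.60 ± 0.13, adjusted p = 0.00457, limma). LINC02167 (chr16:35743268-35756515) was the most abundant riser, at 43.1, 39.7 and 41.2 CPM in parental and 70.2, 70.8 and 68.2 CPM in KO cells (0.75 ± 0.042, adjusted p = 8.46e-22, edgeR). It has no tested coding neighbour. ZFHX3-AS1 (chr16:72665170-72791624) went from 5.01, 5.55 and 4.27 CPM to 10.5, 8.99 and 8.24 CPM (0.90 ± 0.11), whereas ZFHX3, a homeobox transcription factor, stayed within its error (0.04 ± 0.043). LINC02846 rose from 0.920, 0.818 and 0.736 CPM to 1.53, 1.91 and 1.69 CPM (1.05 ± 0.23), beside TMEM250 (0.28). For LINC02846 only the KO mean reached 1 CPM. It was not the only one, as the 46 higher lncRNAs became 42 without those that met the level through 1 group. ITGB2-AS1, at 1.15, 0.887 and 1.28 CPM in parental and 1.99, 1.83 and 1.67 CPM in KO cells (0.72 ± 0.22), rose with ITGB2, the leukocyte integrin beta subunit, which went from 15.2, 17.8 and 16.4 CPM to 40.22, 41.34 and 40.96 CPM (1.31 ± 0.057). The remaining 7 of the 12 highest were at 3.47 CPM or less in every library. INSIG1-DT (0.68), NIPBL-DT (0.67) and MARCHF6-DT (0.66) rose beside INSIG1 (0.20), the cohesin loader NIPBL (0.29) and the ubiquitin ligase MARCHF6 (0.36), which were all higher, NIPBL without a call once the regional median was taken off (adjusted p = 0.0597, edgeR). NIPBL-DT and MARCHF6-DT lie in raised regions, and with the regional median taken off they were at 0.47 and 0.38, while INSIG1-DT was at 0.69. MAN1B1-DT (0.70) and MAP3K2-DT (0.71) rose beside MAN1B1 (0.02) and MAP3K2 (−0.02), which did not pass the test. ANXA2R-AS1 (0.71) and BCAN-AS1 (0.68) complete the set, at 0.59 and 0.62 with the regional median taken off. The groups overlapped for MARCHF6-DT and MAN1B1-DT and for none of the other 10. The call was lost for BCAN-AS1 without KO replicate 2 (adjusted p = 0.215, edgeR), for ANXA2R-AS1 without parental replicate 1 (0.0644) and for MAP3K2-DT without parental replicate 3 (0.0801) or KO replicate 3 (0.0769). MARCHF6-DT lost it without parental replicate 2 or 3 or KO replicate 1 or 2 (adjusted p = 0.0534 to 0.227, edgeR), with the regional median taken off (adjusted p = 0.228, edgeR) and in DESeq2 (adjusted p = 0.0641).

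**Figure D2:**
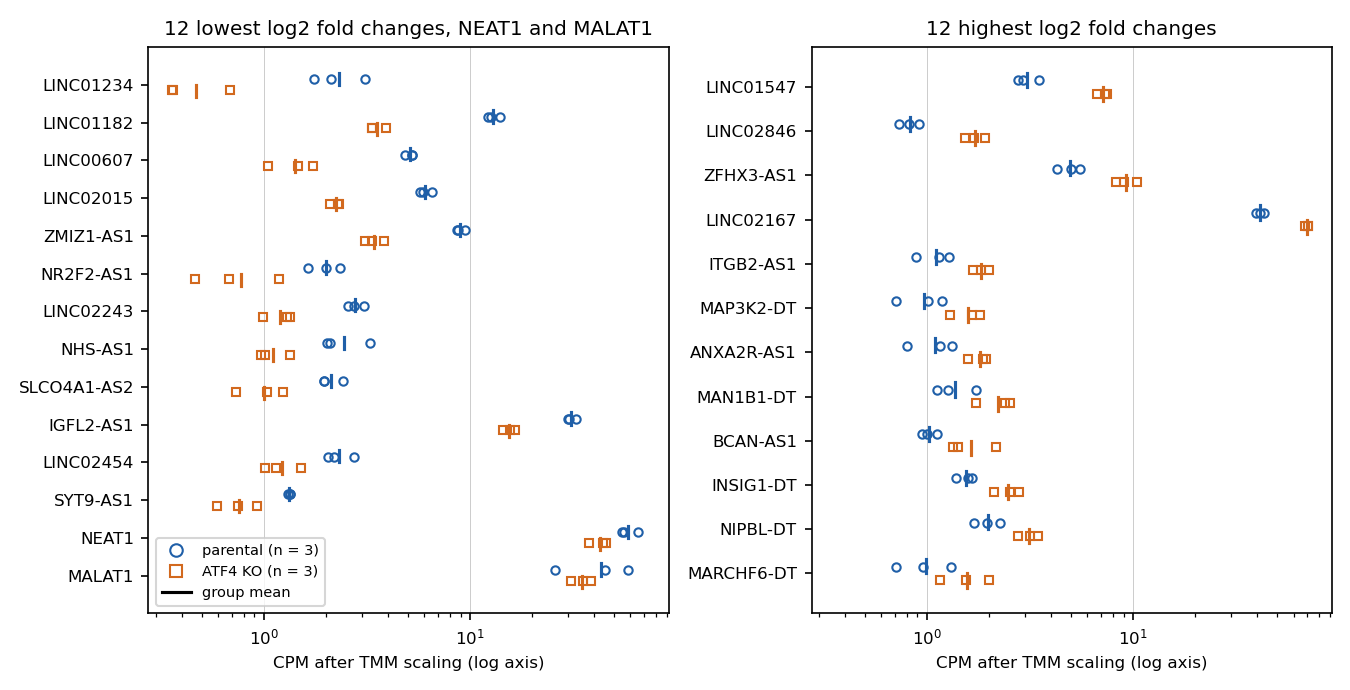
CPM after TMM scaling (log axis) of the 12 lncRNAs with the lowest log2 fold changes among those called, of NEAT1 and MALAT1 (left), and of the 12 with the highest (right), in each parental (circles, n = 3) and ATF4 KO (squares, n = 3) library, with lines at group means. LINC01182 falls from 12.9 to 3.54 CPM on average and LINC02167 rises from 41.3 to 69.7 CPM, while the MALAT1 circles spread from 26.0 to 58.2 CPM around the squares.

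Per kilobase of exon, the most abundant lncRNA was LINC00958 (chr11:12961842-12989548), at 59.0 CPM per kb in parental and 46.4 in KO cells. Its counts were 176.1, 170.0 and 162.0 CPM in parental and 131.5, 132.5 and 135.3 CPM in KO cells, without overlap (−0.35 ± 0.031, adjusted p = 4.84e-14, edgeR). With the regional median of −0.18 removed it was still lower (−0.17, adjusted p = 1.64e-05, edgeR), and its ratio to TEAD1, the nearest coding gene, was also lower (−0.30 ± 0.061, adjusted p = 0.00192, limma). AGAP2-AS1 stood next, at 49.7 and 49.6 CPM per kb, with 72.9 to 78.0 CPM in parental and 71.1 to 77.6 CPM in KO cells. Its log2 fold change of −0.00 ± 0.039 had no stable sign (adjusted p = 0.947, edgeR). ITGB1-DT was slightly lower (−0.13 ± 0.049, adjusted p = 0.0267, edgeR), a call lost without any 1 of 4 libraries, parental replicate 1 or 2 or KO replicate 1 or 3, and with total count scaling (adjusted p = 0.0858, edgeR). ITGB1 was higher (0.11), but not with the regional median taken off (0.02, adjusted p = 0.638, edgeR). LINC01638, on chromosome 22, fell from 36.2, 36.9 and 37.5 CPM to 23.4, 24.8 and 24.0 CPM (−0.62 ± 0.052), in a region with a median of −0.31. UST-AS2, which has 130 exon bases, was at 3.84 to 4.48 CPM in parental and 2.75 to 3.59 CPM in KO cells (−0.37 ± 0.14, adjusted p = 0.0269, edgeR), a call lost without parental replicate 1 or KO replicate 2, with the regional median taken off and in DESeq2 (adjusted p = 0.0549). The groups did not overlap for LINC00958, LINC01638 and UST-AS2, and did for AGAP2-AS1 and ITGB1-DT.

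Each lncRNA was paired with a coding neighbour, taken from its symbol for 363 and by distance for 145, and 443 pairs had a tested neighbour. In 277 pairs (62.5%) both fold changes had the same sign, as in 59.1% of 2234 pairs over all tested noncoding genes, not matched for level. Head-to-head pairs run apart on opposite strands from starts within 5 kb, without overlap. Divergent pairs that overlap at their starts, as HK2-DT and HK2 (starts 6 bases apart), were counted as overlapping antisense. The share with the same sign was 59 of 95 for head-to-head pairs and 158 of 245 for overlapping antisense pairs. On the same strand it was 35 of 59, and for the rest 25 of 44. Across these pairs Pearson's r was 0.36, 0.32, 0.17 and 0.02, and Spearman's rho 0.36, 0.38, 0.31 and 0.03. Both values of a pair come from the same 6 libraries and the same chromosome region, and the pairs are not independent replicates. With the regional median removed from both, 255 of the 443 pairs had the same sign (r = 0.17). Both RNAs were called in 70 pairs, of which 32 were lower together, 20 were higher together and 18 went opposite ways. Where head-to-head promoter windows overlapped, 41 of 65 pairs had the same sign. The plot of lncRNAs against their neighbours shows the spread within each arrangement.

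**Figure D3:**
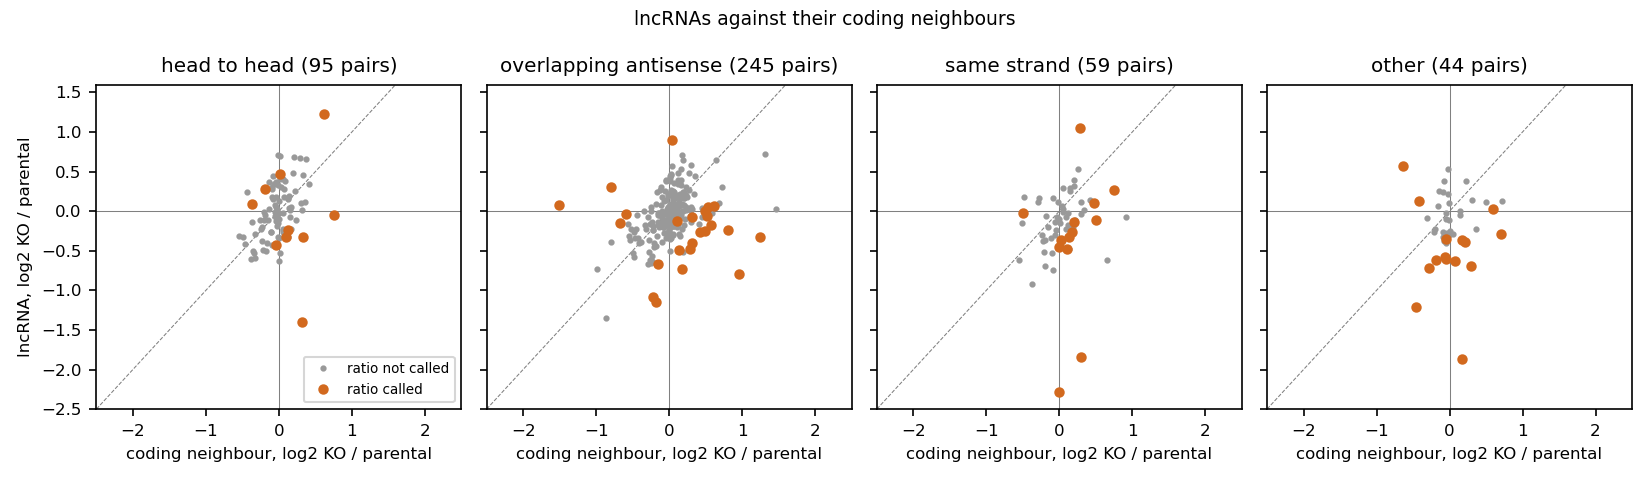
Log2 fold change (ATF4 KO over parental) of each lncRNA against that of its coding neighbour, in 4 panels by arrangement, with pairs whose ratio was called in orange and the line of equal change dashed. Pearson's r ran from 0.36 in head-to-head pairs to 0.02 in the last panel, and in the head-to-head panel ZMIZ1-AS1 at −1.39 stands far below ZMIZ1 at 0.31.

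The ratio of a lncRNA to its neighbour differed between the groups in 62 of 443 pairs, and in 38 without parental replicate 1. The test was limma on log2 CPM, with adjusted p under 0.05 over 2234 noncoding pairs. Of those 2234 pairs, which were not matched for level, 8.46% were called. Among the 62 pairs, the lncRNA was the relatively lower one in 49 and the relatively higher one in 13. Over all 2234 noncoding pairs, which include these, the counts were 123 and 66. Ratios were called in 10 of 95 head-to-head pairs, 24 of 245 overlapping antisense pairs, 13 of 59 on the same strand and 15 of 44 of the rest. Beside LINC01234, LINC01182, LINC00607 and ZMIZ1-AS1, the largest of them included RUNX3-AS1. That RNA fell from 4.41, 5.57 and 5.01 CPM to 2.77, 3.44 and 2.43 CPM (−0.79 ± 0.14) while RUNX3 was at 0.253, 0.296 and 0.261 CPM in parental and 0.510, 0.473 and 0.592 CPM in KO cells (0.95 ± 0.39, adjusted p = 0.0432, edgeR, and 0.0704 with the regional median taken off). For B3GALT1-AS1 (−0.33, adjusted p = 0.142, edgeR) and MELTF-AS1 (−0.24, adjusted p = 0.348, edgeR) the called ratios of −1.56 and −1.02 came with a higher B3GALT1 (1.24 on the log2 scale) and with MELTF at 0.80, which did not pass the test. In the other direction, NALCN-AS1 and KHDC1-AS1 did not pass the test (0.08, which became −0.12 without KO replicate 2, and 0.30, which ranged from 0.13 without KO replicate 1 to 0.49 without parental replicate 2) beside lower NALCN (−1.50) and KHDC1 (−0.80). LINC01605 rose (0.57 ± 0.12) beside a lower ZNF703 (−0.64 ± 0.076), 141568 bases away. Chosen after their values were seen, BOLA3-DT (−0.32) beside BOLA3 (0.33) and EPCAM-DT (0.28) beside EPCAM (−0.19) were head-to-head pairs called in opposite directions, with ratios of −0.65 ± 0.12 and 0.48 ± 0.13 (adjusted p = 0.000361 and 0.0198, limma). Of these 4 RNAs EPCAM-DT lost its call with the regional median taken off (adjusted p = 0.103, edgeR).

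Several lncRNAs sit beside genes of the stress response or of hypoxia, and these too were picked after their values were seen. GARS1-DT, divergent from the glycyl-tRNA synthetase gene, was at 6.02, 5.05 and 5.70 CPM in parental and 4.93, 5.05 and 5.11 CPM in KO cells (−0.15 ± 0.12, adjusted p = 0.316, edgeR). GARS1 itself fell by 0.67 on the log2 scale (246 to 155 CPM), and the ratio of the pair was higher in KO cells (0.52 ± 0.13, adjusted p = 0.0117, limma). WARS2-AS1 (−0.02), DDIT4-AS1 (−0.20) and DNAJC3-DT (−0.24) did not pass the test, and CEBPA-DT was lower (−0.49, adjusted p = 0.022, edgeR). Beside hypoxia genes, SLC2A1-DT (−0.04), HK2-DT (−0.02), PDK1-AS1 (0.24) and HIF1A-AS3 (0.01) did not pass the test. Nor did VIM-AS1 (−0.13), beside the renal carcinoma marker VIM, pass the test. The same held for the HOX cluster transcripts HOXA-AS2 (−0.06), HOXC-AS2 (0.20), HOXC-AS3 (0.08) and HOXD-AS2 (0.09), at 2.08 to 20.8 CPM on average in parental cells. However, HOXA4, the neighbour of HOXA-AS2, was higher (0.52, adjusted p = 0.00137, edgeR). The ratio of HOXA-AS2 to HOXA4 was lower (−0.57 ± 0.094, adjusted p = 1.39e-04, limma). Ratios of HOXC-AS2, HOXC-AS3 and HOXD-AS2 to their neighbours were not called. PAX8-AS1, antisense to the renal lineage factor PAX8, went from 4.05, 4.37 and 4.32 CPM to 2.60, 2.06 and 3.32 CPM (−0.67 ± 0.15, adjusted p = 1.69e-04, edgeR), beside PAX8 at −0.15, and the ratio of the pair was lower (−0.54, adjusted p = 0.0473, limma).

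Overlap with coding exons bears on antisense counts, since the strand setting of the counting is not given in the sources used here. Of the 508 lncRNAs, 260 shared no exon base with a coding exon of the other strand and 18 shared more than 50% of their exon bases. TUBA1B-AS1 shared 80.2%. It rose by 0.64 ± 0.094, as did TUBA1B (0.64), and its counts were 0.709% of those of TUBA1B. In the whole table, 257 genes of at least 300 exon bases lay wholly within exons of an expressed gene on the other strand, and the median of their counts was 0.0756% of the host's count. Which part of the TUBA1B-AS1 counts came from its own strand was not tested.

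By chromosome, lower lncRNAs were most frequent on X and on 11. On X, 9 of 13 were lower (69.2%, all tested genes 58.2%) and none was higher (median −0.58, all tested genes −0.23), led by LINC02243 and NHS-AS1 and including LINC01278, at 26.9 and 19.3 CPM. On chromosome 11, 16 of 28 were lower (57.1%, all tested genes 45.9%) and 1 was higher (median −0.35, all tested genes −0.16). On chromosomes 20 and 22, 3 of 10 (30.0%) and 3 of 13 (23.1%) were lower, against 48.5% and 60.7% of all tested genes there, and none was higher, while chromosome 21 had 2 of each among 8. Of the 72 lncRNAs on these 5 chromosomes, 33 were lower and 3 higher. On the other 18 chromosomes 67 of 436 were lower and 43 higher, and the median was −0.03. With the regional median removed from every gene, 83 lncRNAs were lower and 34 higher of the 508 (median −0.07), beside 2834 and 2710 of the 15321 tested genes, on X the counts became 4 and 1, and on chromosome 11 they became 6 and 2.

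**Figure D4:**
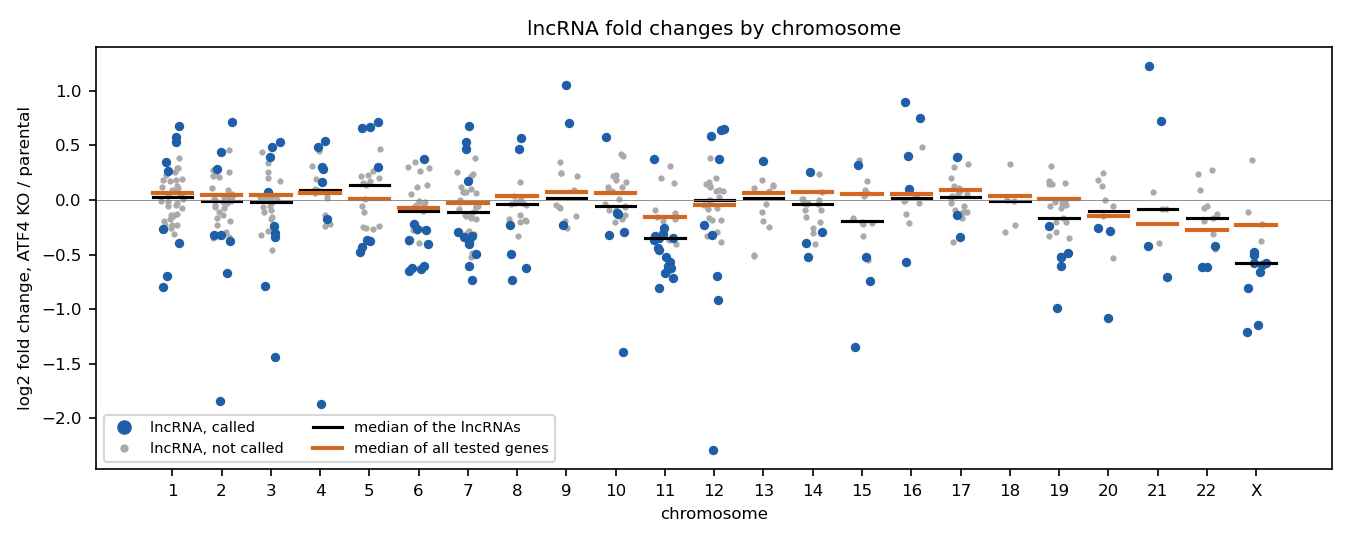
Log2 fold change (ATF4 KO over parental) of each of the 508 lncRNAs by chromosome, called (blue) or not called (grey), with the median of the lncRNAs (black) and of all tested genes (orange). The lncRNA median is −0.58 on X and −0.35 on chromosome 11, each below that of all genes there.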

How the data were processed

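The authors counted reads per gene and deposited raw counts for 60683 Ensembl genes in 6 samples. Per the submitters' processing notes, bcl2fastq 2.20, cutadapt, STAR and HTSeq were used with GRCh38. For the other tools the version, and for the counting the annotation release and strand setting, was not given in the sources used here. Reads that fit more than 1 gene are dropped under HTSeq defaults, which makes overlapping genes uncertain.

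A gene name table named 60370 identifiers and GENCODE 29 (GRCh38) named 289 and gave coordinates, which may differ from the release used for counting. Genes were kept with filterByExpr, scaled by TMM and compared with edgeR 4.0.16 (R 4.3.3) by its quasi-likelihood test, with Benjamini-Hochberg adjustment over 15321 genes and calls at 0.05. Standard errors were derived from the F statistic. Pair ratios (log2 CPM, prior count 2) were tested with limma 3.58.1 over 2234 noncoding pairs. The regional median used 50 tested coding genes on each side. DESeq2 1.42.0 was an alternative. Both tests were tested on simulated data with known changes. The simulated data held no regional shifts and fewer changed genes than were called here, so they do not show how the calls hold in these data.

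Chi-square per degree of freedom was 3.59 to 5.8 between replicates of a group, so that no pair of libraries agreed within sampling noise. Named were MALAT1 and NEAT1, the called lncRNAs with the 12 largest rises and the 12 largest falls, the 5 highest levels per kb, up to 10 called ratios with the largest difference, their coding neighbours, and the 3 smallest p-values of each list. The genes and lists were chosen with earlier results of these data known.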

Additional observations from a re-analysis of the deposited data

How the results depend on the processing

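Over the alternatives run (RLE or total count scaling, DESeq2, limma-voom, no or a stricter low count filter, a replicate block, the regional median removed, each library left out, and a level of 0.5 or 2 CPM), the number of lower lncRNAs, 100, ranged from 75 to 112. The 46 higher lncRNAs became 26 in DESeq2 and 27 to 34 with 1 library left out. The median log2 fold change of −0.05 moved by more than the spread between replicates to −0.0271 with total count scaling, −0.0745 with the regional median removed and −0.03 without chromosomes 11, 20, 21, 22 and X, an alternative chosen after seeing the data. Called pair ratios, 62, ranged from 38 to 55 with 1 library left out. The cause of these shifts was not tested.

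Replicate numbers did not pair the samples (correlations of deviations −0.0277, 0.0063 and −0.0155), and the replicate block gave 100 lower and 44 higher lncRNAs and 57 called ratios, with NEAT1 at adjusted p = 0.121 (edgeR). Of 37 named lncRNAs under 14 alternatives each, 488 of 518 values kept direction and call, 24 lost the call and 6 changed sign. AGAP2-AS1, −0.00, became 0.022 with total count scaling, 0.0004 without a filter, 0.0229 with the regional median removed, and −0.035 to 0.0295 with 1 library left out, being above 0 without parental replicate 1 or KO replicate 3. NALCN-AS1, 0.08, ranged from −0.1241 without KO replicate 2 to 0.2268 without KO replicate 1. In the lists, lower paraspeckle genes became 0 and lower nonsense-mediated decay genes 3 with the regional median removed, the latter 0 to 2 with 1 library left out, and lower exosome genes became 1 with total count scaling. At 1 to 2 CPM, counting error limits what can be called.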
